A study of Bos taurus with 6 samples.

Results

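The miR-29 family was examined in small RNA libraries of bovine granulosa cells. Its members were all listed miRNAs named bta-miR-29 followed by a letter, whatever the arm suffix. This rule took 6 of the 1028 miRNAs listed, namely bta-miR-29a, bta-miR-29b, bta-miR-29c, bta-miR-29d-5p, bta-miR-29d-3p and bta-miR-29e. Granulosa cells from the small antral follicles of slaughterhouse ovaries were cultured for 24 h in medium with exosome-depleted serum. They were then kept for a further 24 h at 37 °C (control, n = 3 libraries) or moved to 42 °C (heat stress, HS, n = 3 libraries). Both groups shared the cell source, the medium and the first 24 h at 37 °C, and the cells carried no genetic change. The libraries are described as biological replicates, but neither the donors behind each one nor their pooling is given. P-values therefore measure the spread between these libraries. The question was whether HS changed the level of the family or the balance among its members.

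miRNAs are short RNAs that pair with messenger RNAs, mostly through the seed near their 5′ end, and lower their stability and translation. The miR-29 family is known for repressing collagens, elastin and other matrix genes, and for targeting the DNA methyltransferases DNMT3A and DNMT3B. In fibroblasts its level falls under TGF-beta signalling, and collagen production then rises. The granulosa layer of the growing follicle rests on a basal lamina rich in type IV collagen, to which granulosa cells contribute.

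In the ARS-UCD2.0 annotation the family has 6 genes, arranged as 3 neighbouring pairs with 0 annotated genes between the partners. MIR29A neighbours MIR29B-1, and both lie within the non-coding gene LOC107131356. MIR29B-2 neighbours MIR29C. MIR29D neighbours MIR29E, and both overlap the protein-coding gene LOC518224, on the same chromosome as the MIR29B-2 and MIR29C pair. The row bta-miR-29b therefore stands for the product of 2 genes, which cannot be told apart in these values. The mature members closely resemble each other, and how reads that fit more than 1 of them were shared out is not given, so the split among members is uncertain to that extent.

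The libraries held from 2076239 to 4590971 reads assigned to miRNAs, with the fewest in control replicate 1. These are not the totals sequenced, which are not used here. No pair of libraries within a group agreed within sampling noise (chi-square of 52.3 to 261 per degree of freedom). Control replicate 1 correlated least with its own group, at a mean r of 0.974 against 0.98 to 0.991 for the other libraries, over the 257 miRNAs with a normalised CPM of at least 10 in every library. Normalised CPM is the read number relative to an effective library size, here a TMM-scaled total (trimmed mean of M-values). Granulosa identity could be checked only by miRNAs. The 6 listed miRNAs linked to the gonad, which include bta-miR-202, bta-miR-132 and bta-miR-378, summed to 5310 to 6470 normalised CPM at 37 °C and 5256 to 6035 at 42 °C. Red cell miRNAs (bta-miR-451, bta-miR-144 and bta-miR-486) summed to 12.5 to 62.7 over the 6 libraries, and bta-miR-451 and bta-miR-144 averaged under 1.5 in each group. Epithelial miRNAs of the miR-200 family with bta-miR-205 summed to 51.9 to 96.9. Sums of other cell types, with miRNAs named below, were larger. They were 2072 to 3213 for fibroblasts and smooth muscle, 999 to 1760 for leukocytes, 146 to 363 for endothelium and 67.3 to 252.9 for striated muscle. The purity of the cultures was not tested.

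HS produced no change in a miR-29 member that passed a test. The family was led by bta-miR-29a, a highly abundant miRNA in both groups, and the order of levels was the same in 6 of 6 libraries: bta-miR-29a, bta-miR-29b, bta-miR-29c, bta-miR-29d-5p, bta-miR-29d-3p and bta-miR-29e. Neighbours in this order did not overlap over the 6 libraries. The members together summed to 18708 ± 2573 normalised CPM in control cells and, after HS, to 20078 ± 1272 (SD, n = 3 libraries per group). The family's share of the reads assigned to miRNAs was 1.88% ± 0.28 at 37 °C and 2.01% ± 0.136 at 42 °C. In such bulk libraries, fewer expressing cells and less RNA per cell cannot be told apart. The lowest share, 1.55%, was that of control replicate 1, and the other 5 libraries lay between 1.88% and 2.15%. Without control replicate 1 the control mean was 20191 normalised CPM, above the HS mean by less than the spread between replicates, so the direction of the difference turned (-113.3, HS minus control). With any other library left out HS was higher, by 907 to 2184 normalised CPM, or by 0.057 to 0.214 percentage points of the reads.

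bta-miR-29a ranked 13th to 15th among all miRNAs in each library. Control replicates 1, 2 and 3 held 15087, 18526 and 18785 normalised CPM of it, while HS replicates 1, 2 and 3 held 19389, 17270 and 19030. The groups overlapped, and control replicate 1 was the lowest of the 6. Mean levels were 17466 ± 2064 (control) and 18563 ± 1134 (HS; SD, n = 3 libraries per group). The log2 fold change, HS relative to control on the log2(value + 1) scale, was 0.09 ± 0.114 (SE, limma adjusted p = 0.839). Its 95% interval corresponds to a fold of 0.884 to 1.29, the narrowest among the 5 members tested. The log2 change was -0.0090 without control replicate 1 (limma adjusted p = 0.985).

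bta-miR-29b, the product of MIR29B-1 and MIR29B-2, stood 15.8-fold below bta-miR-29a in mean level. Its normalised CPM was 506.8, 1256 and 1258 for control replicates 1, 2 and 3, against 993.1, 1149 and 1671 for HS replicates 1, 2 and 3. The groups overlapped, and control replicate 1 was the lowest library, at 0.403 of the mean of the other control libraries. The 1038 reads of bta-miR-29b in it gave an exact Poisson 95% interval of 476 to 539 normalised CPM, which covers counting error only. The log2 fold change was 0.42 ± 0.387 (SE, limma adjusted p = 0.744), the largest in size among the members, with a fold interval of 0.707 to 2.52. Without control replicate 1 it was -0.02 (limma adjusted p = 0.992).

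bta-miR-29c, whose gene neighbours MIR29B-2, stood at 126.5, 238.5 and 252.1 normalised CPM across control replicates 1, 2 and 3, and at 189.8, 181.9 and 270.7 across HS replicates 1, 2 and 3. Here too the groups overlapped and control replicate 1 was lowest, while HS replicate 3 was highest. Mean levels were 205.7 ± 69 (control) and 214.2 ± 49.2 (HS; SD, n = 3 libraries per group). The log2 fold change was 0.10 ± 0.306 (SE, limma adjusted p = 0.959), with a fold interval of 0.648 to 1.77. It was -0.22 without control replicate 1 and -0.08 without HS replicate 3, with limma adjusted p-values of 0.633 and 0.959.

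**Figure D1:**
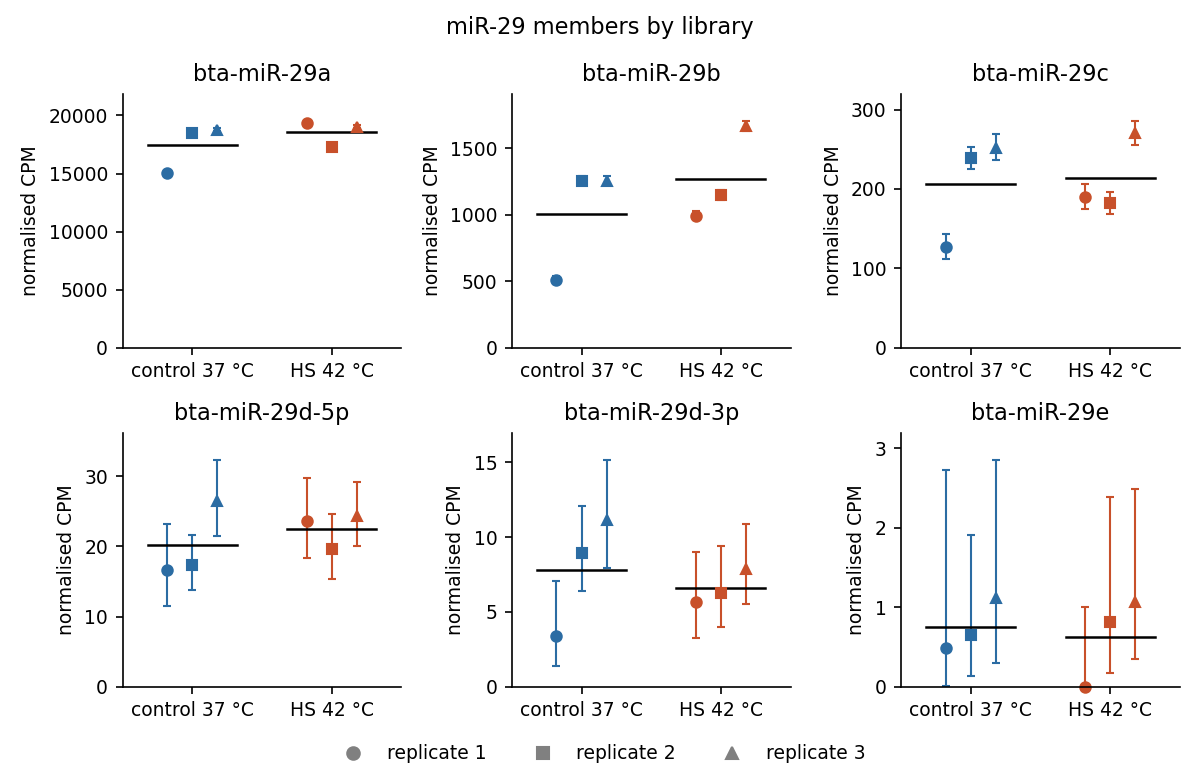
Normalised CPM (vertical axes, starting at 0 and differing between panels) of the 6 miR-29 members in 3 control and 3 HS libraries. Symbols are single libraries with exact Poisson 95% intervals of counting error (for the library at 0 reads, up to its 3-read limit), and horizontal lines are group means. Control replicate 1, at 15087 for bta-miR-29a and 506.8 for bta-miR-29b, was the lowest library in 5 of the 6 panels.

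bta-miR-29d was the only hairpin of the family listed with both arms, and miR-29 hairpins are best known for the product of their 3′ arm. bta-miR-29d-5p reached 16.6, 17.4 and 26.5 normalised CPM across control replicates 1, 2 and 3, and 23.6, 19.6 and 24.3 across HS replicates 1, 2 and 3. In the same order, bta-miR-29d-3p reached 3.42, 8.91 and 11.1 with control and 5.64, 6.25 and 7.88 with HS libraries. In each library the 5p arm was the higher of the arms, and for both arms the groups overlapped. Of all bta-miR-29d reads, 466 fell on the 5p arm and 165 on the 3p arm.

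The 5p arm held 73.1% ± 8.74 of bta-miR-29d reads at 37 °C and 77.3% ± 2.91 at 42 °C (SD, n = 3 libraries per group). The exact permutation test, two-sided, gave p = 0.5, where 0.1 is the smallest p it can reach. Single libraries ranged from 66.1% (Wilson 95% interval 57.3% to 73.9%, 121 reads) in control replicate 2 to 82.9% (68.7% to 91.5%, 41 reads) in control replicate 1. The extremes were thus both control libraries, on few reads. The difference of 4.19 percentage points became 9.08 without control replicate 1, with the remaining control libraries below the HS libraries (exact permutation test, p = 0.1, the smallest it can give), and 0.674 without control replicate 2 (exact permutation test, p = 1). The log2 fold change was 0.17 ± 0.234 for bta-miR-29d-5p (SE, limma adjusted p = 0.839) and -0.10 ± 0.393 for bta-miR-29d-3p (limma adjusted p = 0.959). Their fold intervals were 0.768 to 1.66 and 0.488 to 1.77. For bta-miR-29d-5p the log2 fold change was 0.06 without control replicate 1 and 0.38 without control replicate 3 (limma adjusted p = 0.948 and 0.676). For bta-miR-29d-3p the log2 fold change was -0.54 without control replicate 1, 0.04 without control replicate 2 and 0.19 without control replicate 3 (limma adjusted p = 0.328, 0.98 and 0.913).

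bta-miR-29e was near the limit of detection, with 1, 3 and 4 reads over control replicates 1, 2 and 3, and 0, 3 and 5 reads over HS replicates 1, 2 and 3. The 0 reads in HS replicate 1 allow up to 0.995 normalised CPM (3 reads in that library). It was the only member that did not pass the filter on low reads, and with means of both groups near the 3-read limits no fold is given. With no filter on low reads its limma adjusted p was 0.893. At a minimum of 10 normalised CPM in 2 or more libraries of a group, 4 members were detected in control and in HS cells, and bta-miR-29d-3p and bta-miR-29e were detected in neither group.

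The test was run across the 365 miRNAs that passed the filter, 5 of them miR-29 members. The first threshold asked for an adjusted p ≤ 0.2 and a change of 1 or more on the log2 scale in either direction. It was passed in limma by 0 of the 5 members, against 3.01% of all miRNAs tested. The second, an adjusted p under 0.05, was also passed by 0 members, against 2.19%. At an unadjusted p under 0.05 there were 0 members, against 14.5% of all miRNAs. The edgeR quasi-likelihood test on whole reads also gave 0 members at an unadjusted p under 0.05, against 13.7% of all miRNAs, and the DESeq2 Wald test 0, against 13.4%. Groups without overlap were seen for 0 of the 5 members and for 20% of all miRNAs. A count of 0 in 5 is close to each of these background shares. The median size of the log2 fold change over all miRNAs tested was 0.2, and 4 of the 5 members were smaller than that, from percentile 25.8 for bta-miR-29a to percentile 43.3 for bta-miR-29d-5p. bta-miR-29b was at percentile 76.2.

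**Figure D2:**
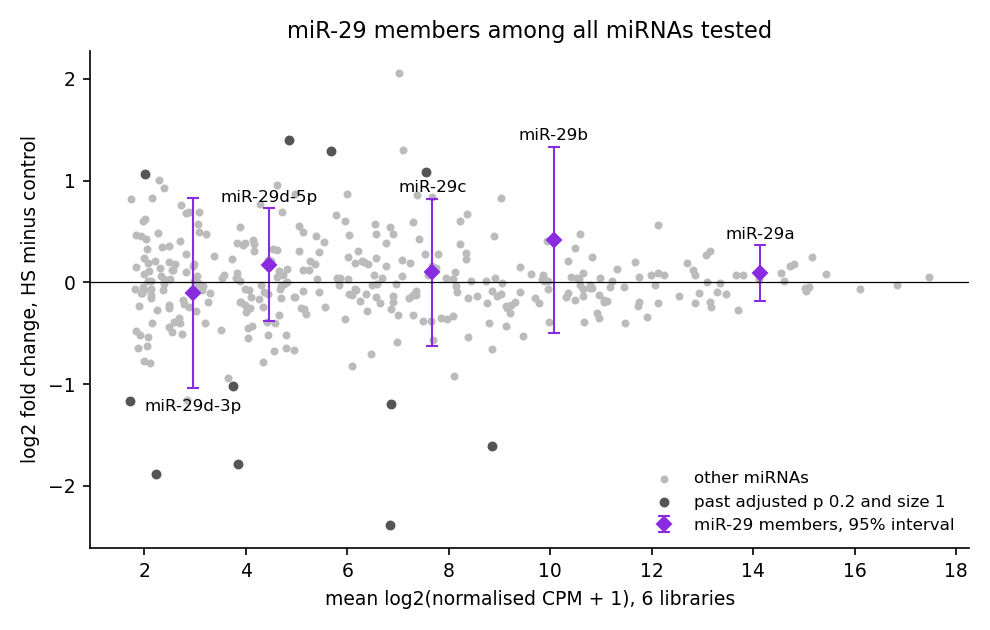
Log2 fold change (HS minus control, vertical axis) against the mean of log2(normalised CPM + 1) over the 6 libraries for the 365 miRNAs tested. Diamonds are the 5 tested miR-29 members with limma 95% intervals, each of which includes 0, and dark points are the miRNAs past the first threshold.

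The members differed in how much they varied between replicates. The SD of log2(value + 1) among control libraries was 0.756 for bta-miR-29b, 0.772 for bta-miR-29d-3p and 0.55 for bta-miR-29c, against a median of 0.278 over all miRNAs tested. In control SD these members were at percentiles 89.6, 90.4 and 82.2. bta-miR-29a, with 0.177, was at percentile 26.6. Among HS libraries the SDs were 0.387 for bta-miR-29b, 0.314 for bta-miR-29c, 0.214 for bta-miR-29d-3p and 0.0896 for bta-miR-29a, against a median of 0.196. bta-miR-29d-5p had SDs of 0.354 among control and 0.160 among HS libraries. For bta-miR-29d-3p the control value of replicate 1 rested on 7 reads. The dominant member thus varied less than the median miRNA in both groups, and bta-miR-29b varied more. These medians take miRNAs of all levels and are not matched to the level of a member.

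For bta-miR-29b and bta-miR-29c, control replicates 2 and 3 lay close together and replicate 1 lay apart. This library was the lowest of the 6 libraries for 5 of the 5 members tested. Over all miRNAs tested it was the lowest for 23.8% and the highest for 24.4%, so it stood at both ends of the range more often than any other library. Some of the lists examined also had their lowest or highest sum in this library. The 27 listed miRNAs linked to collagen and TGF-beta signalling summed to 181192 normalised CPM there and to 206469 to 247048 elsewhere. Most of this sum was bta-miR-21-5p alone, with 144234 there and 165181 to 203788 elsewhere. miRNAs of fibroblasts and smooth muscle (miR-143, miR-145, miR-199a, miR-214 and miR-152) summed to 2072 normalised CPM in control replicate 1 and to 2803 to 3213 in the other 5 libraries. Every name of this list also stands in another list, so it is not a separate set. Striated muscle miRNAs summed to 252.9 in control replicate 1 and to 67.3 to 208.6 elsewhere, with bta-miR-208a at 0 in every library. The other lists had sums in control replicate 1 within the range of the other libraries. Leukocyte miRNAs (miR-223, miR-142, miR-150 and miR-146a) summed to 1204 in it and to 999.1 to 1760 elsewhere, endothelial miRNAs (miR-126 and bta-miR-10a) to 310 and to 146 to 362.8, and miRNAs linked to DNA methyltransferases to 18282 and to 14375 to 18817. The gonad, red cell and epithelial sums of control replicate 1 were 5310, 52.7 and 62, also inside the range of the other libraries. The part of these lists in the low miR-29 values was not tested.

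To ask whether the members moved unequally, the ratios between the 4 members with at least 10 normalised CPM in every library were compared, which removes the scaling of the libraries. In the 6 pairs the exact permutation test (two-sided, 0.1 being its smallest p) gave p from 0.2 to 1, and every p was 1 after Benjamini-Hochberg adjustment. The smallest p was that of bta-miR-29b to bta-miR-29c. Its log2 ratio was 1.99, 2.39 and 2.31 for control replicates 1, 2 and 3, against 2.38, 2.65 and 2.62 for HS replicates 1, 2 and 3. HS replicate 1 lay between control replicates 2 and 3, so the groups overlapped, while the HS library was the higher one at each of the 3 replicate numbers. The mean was 2.23 ± 0.211 at 37 °C and 2.55 ± 0.148 at 42 °C (SD, n = 3 libraries per group), a difference of 0.32 (exact permutation test, p = 0.2). Without control replicate 1 the difference was 0.20, and taken by replicate number it was 0.39, 0.26 and 0.31 (exact sign-flip test, p = 0.25, the smallest it can give). Without HS replicate 1 it was 0.40 (exact permutation test, p = 0.1, the smallest it can give).

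The log2 ratio of bta-miR-29a to bta-miR-29b was 4.89, 3.88 and 3.90 for control replicates 1, 2 and 3, against 4.29, 3.91 and 3.51 for HS. Replicate 1 had the highest ratio in each group. The difference between groups was -0.32 (exact permutation test, p = 0.7) and 0.01 without control replicate 1. The ratio of bta-miR-29a to bta-miR-29c differed by -0.01 between groups on the log2 scale (exact permutation test, p = 1). In shares, bta-miR-29a made up 93.5% ± 1.99 of the family at 37 °C and 92.5% ± 1.77 at 42 °C (SD, n = 3 libraries per group). bta-miR-29b made up 5.23% ± 1.74 and 6.32% ± 1.57, and bta-miR-29c 1.08% ± 0.239 and 1.06% ± 0.198. These differences were smaller than the spread between replicates. Without control replicate 1 the difference in share was 0.088 percentage points for bta-miR-29b, in place of 1.09, and 0.080 for bta-miR-29a, in place of -1.07, while for bta-miR-29c it was -0.15 in place of -0.015. The differences of bta-miR-29a and bta-miR-29b also shrank without HS replicate 3, to -0.13 and 0.27, and grew without HS replicate 1, to -1.89 and 1.84. Without control replicate 2 or 3 they were -1.64 or -1.65 and 1.61 or 1.57.

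**Figure D3:**
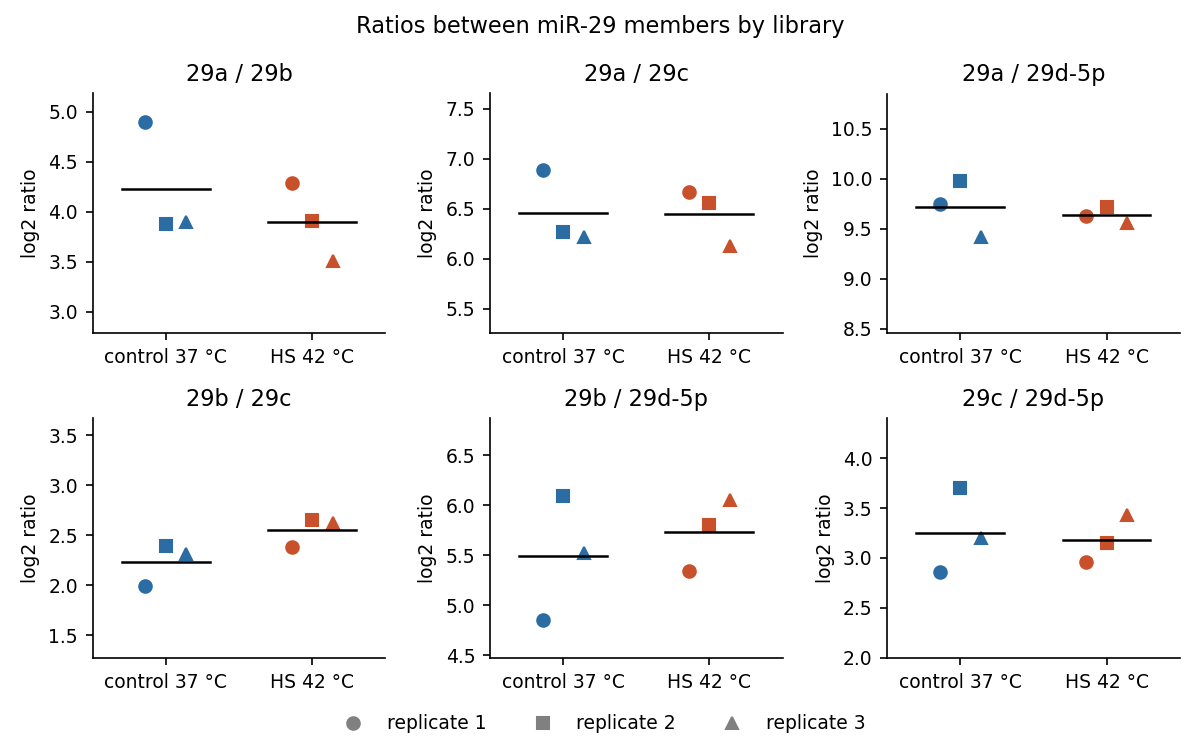
Differences in log2(normalised CPM + 1), read as log2 ratios, for the 6 pairs of members with at least 10 normalised CPM in every library (vertical axes span the same range in each panel). Symbols are libraries and lines are group means, and for bta-miR-29b to bta-miR-29c the HS mean of 2.55 lay above the control mean of 2.23 with HS replicate 1 among the control values.

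Across the 6 libraries, bta-miR-29b and bta-miR-29c varied most alike (Pearson r = 0.948 of log2 values, n = 6 libraries that share their normalisation, and 0.833 without control replicate 1). bta-miR-29a and bta-miR-29b, also products of neighbouring genes, had r = 0.84, which dropped to 0.0996 without control replicate 1. bta-miR-29c and bta-miR-29d-3p had 0.924 and 0.784, and the arms of bta-miR-29d had 0.58 and 0.217. In each of the 10 pairs of tested members r was lower without control replicate 1. These values are a description of 6 libraries.

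Outside the family, the miRNAs most like bta-miR-29a over the 6 libraries were bta-miR-21-5p (r = 0.955, and 0.854 without control replicate 1), bta-miR-10162-5p (0.948 and 0.729) and bta-miR-2336 (0.946 and 0.751). In the same terms, bta-miR-27a-3p (0.973 and 0.938), bta-miR-2285aj-5p (0.971 and 0.823) and bta-miR-6524 (0.955 and 0.709) were most like bta-miR-29b. For bta-miR-29c they were bta-miR-192 (0.97 and 0.906), bta-miR-21-3p (0.969 and 0.904) and bta-miR-27b (0.965 and 0.965). bta-miR-29d-3p was nearest to bta-miR-142-3p (0.902 and 0.844), bta-miR-2285b (0.901 and 0.877) and bta-miR-27b (0.899 and 0.793). bta-miR-29d-5p was nearest to bta-miR-545-5p (0.923 and 0.896), bta-miR-11986b (0.87 and 0.794) and bta-miR-212 (0.862 and 0.775). The family sum was nearest to bta-miR-10162-5p (0.967 and 0.824), bta-miR-2285aj-5p (0.965 and 0.728) and bta-miR-21-5p (0.964 and 0.912). Of the 360 other miRNAs tested, 7 reached an r of 0.9 or more with bta-miR-29a, 13 with bta-miR-29b and 11 with bta-miR-29c.

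miRNAs known to act on the same processes as the family were also counted. Of those linked to collagen and TGF-beta signalling, 25 were tested and 0 passed either threshold in limma, against 3.01% and 2.19% of all miRNAs tested. Their median log2 fold change was 0.03, against -0.0015 over all miRNAs tested, and 1 of the 25 had an unadjusted p under 0.05, against 14.5%. Its most abundant members were bta-miR-21-5p, which raises TGF-beta signalling by repressing SMAD7, bta-miR-26a and bta-miR-26b. bta-miR-21-5p averaged 180280 ± 31695 normalised CPM at 37 °C and 185660 ± 18264 at 42 °C (SD, n = 3 libraries per group, limma adjusted p = 0.959). Of the miRNAs linked to DNA methyltransferases, 10 were tested and 0 passed, with a median log2 fold change of -0.09 and 0 with an unadjusted p under 0.05, set against the same shares of all miRNAs. This list includes bta-miR-148a, a repressor of DNMT1, at 1916 ± 539 and 1804 ± 289 (limma adjusted p = 0.959). bta-miR-342 was its most abundant member, at 8595 ± 3014 and 10145 ± 262 (limma adjusted p = 0.726), followed by bta-miR-140 at 2368 ± 278 and 2284 ± 201 (limma adjusted p = 0.959). The edgeR quasi-likelihood test also called 0 miRNAs of either list at the first threshold, against 2.74% of all miRNAs.

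**Figure D4:**
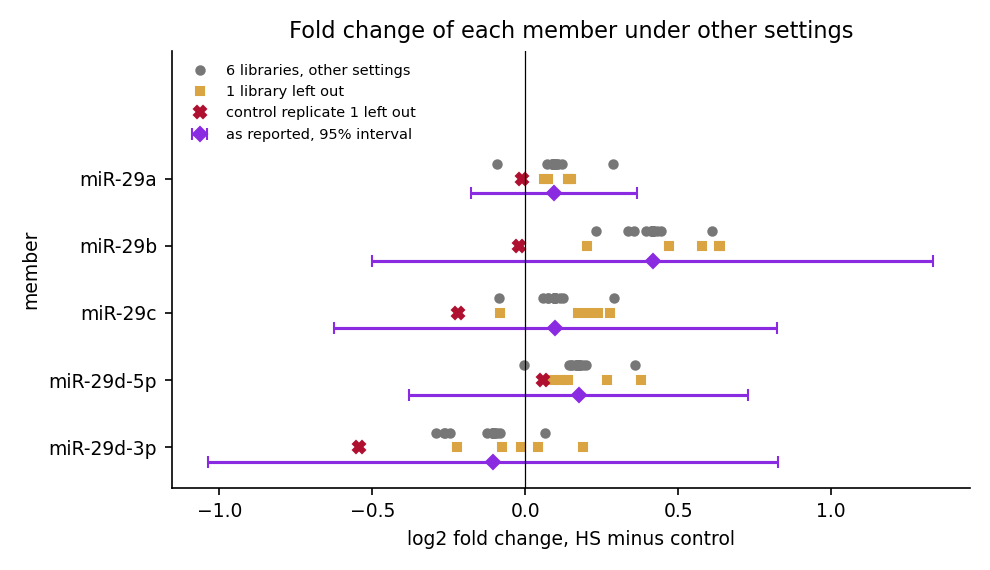
Log2 fold change (HS minus control, horizontal axis) of the 5 tested members as reported with its 95% interval, under other settings with all 6 libraries, and with 1 library left out. Without control replicate 1 the value of bta-miR-29b moved from 0.42 to -0.02 and that of bta-miR-29d-3p from -0.10 to -0.54.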

How the data were processed

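The deposited signal was TMM-normalised CPM, 1 value per miRNA and library. Cutadapt 1.11 removed the adapters, after which the authors merged reads with the same molecular identifier, mapped them with Bowtie2 2.2.2 to the bovine genome (UMD3.1) and miRBase, and normalised in edgeR. In every library 100% of values were whole multiples of 1 read (tolerance 0.01 of a read), and these whole reads gave the miRNA read totals and the filter. The design foresaw either unit, and limma was used.

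limma 3.58.1 (eBayes with trend, R 4.3.3) was run on log2(value + 1) after the default filterByExpr of edgeR 4.0.16, with Benjamini-Hochberg adjustment over the 365 miRNAs tested. The fit was run on simulated reads, with changes larger than those of the members and the same added spread for every miRNA. That run does not show whether changes as small as theirs could be found. Alternatives were other scalings, filters, pseudocounts (0.5 and 5), edgeR, DESeq2 1.42.0, a replicate block and each library left out in turn. TMM and upper quartile factors over all listed miRNAs were added after seeing the data. Ratios used exact permutation tests (Python 3.11.15).

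Members and lists were chosen with earlier results of these data known. The rule for named miRNAs was every member, the 3 most correlated miRNAs outside the family per tested member and for the family sum, and the leading members of each list. Of the 26 collagen and TGF-beta names 25 matched, of the 9 DNA methyltransferase names 9, and of the 8 gonad names 6. Lists share names: 12 of the 26 collagen and TGF-beta names also stand in another list. So do 5 of the 5 fibroblast and smooth muscle names and 5 of the 6 epithelial names. Gene neighbours came from RefSeq on ARS-UCD2.0, which is not the mapping build, so no positions are given. A floor of 3 reads equals 0.639 to 1.46 normalised CPM by library. Intervals and floors cover counting error only. How evenly the kit captured different miRNAs was not tested.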

Additional observations from a re-analysis of the deposited data

How the results depend on the processing

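No member tested passed either threshold under any of the 21 alternatives run. bta-miR-29d-3p was not tested under the stricter filter, and bta-miR-29e was tested only with no filter. Of 359 comparisons of a reported value with an alternative, 333 kept direction and side of the threshold or stayed within their limits, 17 fold changes or log2 ratios changed sign and 9 counts moved by over 1.5 times. Many of the 333 are weak checks. A limma fold change cannot move with the filter, trend or replicate block, and mean differences taken by replicate number equal the reported ones. Counts of members and list miRNAs called were 0 in every setting run. The tally is therefore no measure of robustness. Among the 333, 5 differences in a member's share of the family changed sign with a library left out, 1 for bta-miR-29a (without control replicate 1) and 4 for bta-miR-29c (without control replicate 2 or 3 or HS replicate 1 or 2). The family sum and its percent of reads also changed sign without control replicate 1. All of these moved by less than 1 SD, pooled over both groups. Leaving out libraries for the family sum and for the 5p share of bta-miR-29d was added after seeing the data. With upper quartile factors the median change of all miRNAs tested was 0.18 (log2) when the factors came from the miRNAs tested and -0.18 when they came from all listed miRNAs. With the first, bta-miR-29d-3p was at 0.065, below that median. With the second, bta-miR-29a was at -0.093, bta-miR-29c at -0.087 and bta-miR-29d-5p at -0.0026, all above it. Leaving out each library in turn gave log2 fold changes of -0.0090 to 0.15 for bta-miR-29a, -0.020 to 0.64 for bta-miR-29b, -0.22 to 0.28 for bta-miR-29c, 0.057 to 0.38 for bta-miR-29d-5p and -0.54 to 0.19 for bta-miR-29d-3p. The differences in log2 ratio ran from -0.52 to 0.011 for bta-miR-29a to bta-miR-29b, -0.13 to 0.21 for bta-miR-29a to bta-miR-29c, -0.23 to 0.051 for bta-miR-29a to bta-miR-29d-5p, -0.077 to 0.55 for bta-miR-29b to bta-miR-29d-5p and -0.28 to 0.15 for bta-miR-29c to bta-miR-29d-5p. For bta-miR-29b to bta-miR-29c they ran from 0.20 to 0.40, the only pair whose sign never changed. The cause was not tested.

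Over all miRNAs, 11 passed the first threshold, and 7 to 15 with a library left out. At an adjusted p under 0.05 there were 8, against 5 with either set of upper quartile factors and 20 with the DESeq2 Wald test, and 2 to 12 with a library left out. Same-numbered libraries deviated from their group means with r of 0.421, -0.117 and 0.616. Replicates 1 and 3 of each group were nearest to the same number in the other group. Control replicate 2 was nearest to HS replicate 3, and HS replicate 2 to control replicate 1, so the numbers were not taken to pair the samples. The replicate block gave 10 and 6 calls, with adjusted p-values of 0.436 for bta-miR-29b and 0.747 for bta-miR-29a. Depth limits bta-miR-29e and both arms of bta-miR-29d.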
